A study of Mus musculus with 9 samples.

Results

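Matrix metalloproteases are zinc-dependent proteases that cut collagens, proteoglycans and other proteins of the extracellular matrix, and the tissue inhibitors of metalloproteases (Timp proteins) bind and block them. The genes described here are Mmp2, Mmp3, Mmp9, Mmp10, Mmp13, Mmp14, Timp1, Timp2 and Timp3, chosen by name with earlier results of these data known. All 9 were measured, out of 19938 genes with a single symbol on the array. Each had 1 transcript cluster, the array's unit for a gene, so no choice between features was needed. Metalloproteases are made as inactive proenzymes. The membrane-bound Mmp14 protein, with Timp2 as an adaptor, activates proMmp2 at the cell surface, and stromelysins such as Mmp3 activate other proenzymes. In many cell types, transcription of Mmp3, Mmp10 and Mmp13 responds to AP-1, a dimer of Fos and Jun proteins.

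The samples were mouse embryonic stem cells of a mixed S129S6-C57BL/6 background, in 3 groups of 3 arrays. Null Eα cells had both β-catenin alleles deleted and stably expressed an E-cadherin-α-catenin fusion, null cells had both alleles deleted, and β-catenin flox/- cells, the control, had 1 allele deleted and the other floxed. All were grown on gelatin in medium with 15% FCS and LIF at 1000 U/ml. Separate lines are not named for the replicates within a group, so p-values measure the spread between these arrays, and genotype and line cannot be told apart. The comparisons ask how the metalloprotease genes differ without β-catenin, and whether the fusion, which ties E-cadherin to α-catenin without β-catenin, changes that. Values are log2 RMA signals, and differences are in log2 units with limma's standard error, so that 1 unit is a doubling.

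Of the 9 genes, 6 were higher in both lines without β-catenin, namely Mmp3, Mmp10, Mmp13, Mmp14, Timp2 and Timp3. The same 6 were called in null Eα and in null cells against flox cells, and 0 of the 9 were called lower. Mmp2, Mmp9 and Timp1 were not called in either. Against null cells, the null Eα cells had lower Mmp14 and Timp3, and the other 7 were not called. A call is a Benjamini-Hochberg adjusted p under 0.05 over all genes in limma. Such calls were frequent. Over all genes, 63.7% were called in null Eα against flox cells (32.1% higher and 31.6% lower), 55.2% in null against flox cells (26.5% higher and 28.7% lower) and 31.7% in null Eα against null cells (13.6% higher and 18.1% lower). The median difference of the 9 genes was 1.73 in null Eα against flox cells, 2.24 in null against flox cells and -0.17 in null Eα against null cells, where the medians over all genes were 0.07, 0.06 and 0.05. Since the 9 genes were chosen with earlier results known, their counts and medians are descriptions and not a test against all genes. The first 2 comparisons share the flox arrays.

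**Figure D1:**
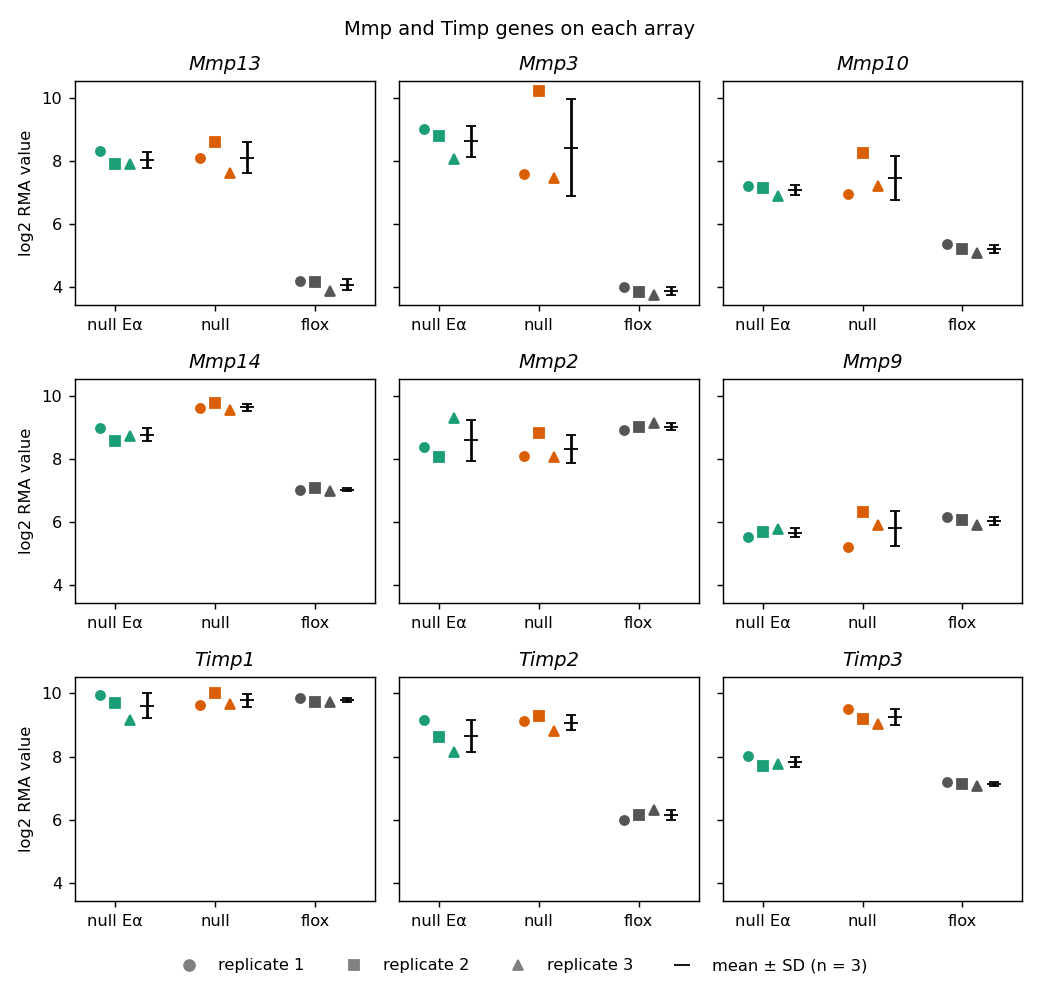
Log2 RMA value of each of the 9 genes on every array, with null Eα, null and flox cells from left to right. Symbols are arrays and the black marks are the mean ± SD of 3 arrays. For Mmp13, Mmp3, Mmp10, Mmp14, Timp2 and Timp3 every null Eα and null array lies above every flox array.

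Mmp13, an interstitial collagenase, had values of 8.30, 7.89 and 7.89 on the null Eα arrays, 8.10, 8.59 and 7.62 on the null arrays, and 4.19, 4.18 and 3.88 on the flox arrays. Both lines without β-catenin stood about as far above the flox arrays, and their ranges overlapped. The rise was 3.94 ± 0.22 in null Eα against flox cells (limma adjusted p = 2.55e-07), and 4.02 ± 0.22 in null against flox cells (adjusted p = 1.36e-07). On the linear scale these are 15.4-fold and 16.2-fold. Null Eα and null cells differed by -0.08 ± 0.22 (adjusted p = 0.813), with a 95% confidence interval of -0.56 to 0.41.

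Mmp3, stromelysin-1, a protease of broad specificity, had values of 9.01, 8.77 and 8.07 on the null Eα arrays, 7.58, 10.20 and 7.47 on the null arrays, and 4.0, 3.86 and 3.76 on the flox arrays. The null arrays were spread widely, since replicate 2 lay over 2 units above the other two, while the flox arrays were close together. Mmp3 rose by 4.74 ± 0.60 in null Eα against flox cells (26.8-fold, limma adjusted p = 7.18e-05) and by 4.55 ± 0.60 in null against flox cells (23.3-fold, adjusted p = 8.52e-05). The null rise without replicate 2 was 3.65 (adjusted p = 2.11e-06). Null Eα and null cells differed by 0.20 ± 0.60 (adjusted p = 0.821, interval -1.13 to 1.52), but without null replicate 2 null Eα cells were called higher by 1.09 (adjusted p = 0.00903).

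Mmp10, stromelysin-2, had values of 7.19, 7.13 and 6.89 on the null Eα arrays, 6.94, 8.24 and 7.20 on the null arrays, and 5.36, 5.20 and 5.10 on the flox arrays. Null replicate 2 was again the highest, and the null Eα arrays fell within the range of the null arrays or just under it. Mmp10 rose by 1.85 ± 0.27 in null Eα cells (3.61-fold, limma adjusted p = 2.01e-04) and by 2.24 ± 0.27 in null cells (4.73-fold, adjusted p = 4.47e-05), each against flox cells. Null Eα and null cells differed by -0.39 ± 0.27 (adjusted p = 0.291, interval -0.99 to 0.21), a difference that was 5.18e-04 without null replicate 2.

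Mmp3 and Mmp13 were dim on the flox arrays, under those arrays' lower quartiles (4.37 to 4.40). Signal over background was not measured, so folds against flox cells may be understated for both.

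These 3 genes lie in 1 cluster of metalloprotease genes on chromosome 9, and their promoter windows are shown because the genes rose together. RefSeq windows (GRCm38.p6, C57BL/6J sequence) run from 250 bases before to 50 bases after the annotated start, and 7 of the 9 genes had one. Mmp2 and Mmp9 had none. In the sequences, 5′ to 3′, capitals mark AP-1 letters (TGANTCA) or a GC box (GGGCGG or its complement). The Mmp13 window is chr9:7272264-7272563, that of Mmp3 chr9:7445572-7445871 and that of Mmp10 chr9:7502092-7502391, all on the plus strand.
Mmp13: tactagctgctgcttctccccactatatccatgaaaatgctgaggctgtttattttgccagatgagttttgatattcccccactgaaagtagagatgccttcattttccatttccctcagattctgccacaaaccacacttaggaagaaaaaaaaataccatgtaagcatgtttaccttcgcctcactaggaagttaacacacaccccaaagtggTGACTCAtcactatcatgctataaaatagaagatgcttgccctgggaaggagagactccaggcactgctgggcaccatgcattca
Mmp3: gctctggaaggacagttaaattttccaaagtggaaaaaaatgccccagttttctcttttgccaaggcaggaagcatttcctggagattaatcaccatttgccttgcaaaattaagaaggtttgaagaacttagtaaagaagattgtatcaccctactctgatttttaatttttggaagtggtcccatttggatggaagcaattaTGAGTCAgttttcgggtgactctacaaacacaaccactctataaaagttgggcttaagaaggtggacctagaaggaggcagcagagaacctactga
Mmp10: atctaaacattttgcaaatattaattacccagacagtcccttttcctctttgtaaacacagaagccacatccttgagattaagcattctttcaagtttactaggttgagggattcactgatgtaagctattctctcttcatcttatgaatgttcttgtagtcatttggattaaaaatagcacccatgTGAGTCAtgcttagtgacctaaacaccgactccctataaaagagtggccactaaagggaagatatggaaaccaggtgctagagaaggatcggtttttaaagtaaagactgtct

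Each of the 3 windows held 1 match to the AP-1 letters, from base -35 to -29 in Mmp13, from -46 to -40 in Mmp3 and from -63 to -57 in Mmp10, counted from the annotated start. Each also held TATAAA downstream of it, starting at -16, -7 and -29 in the same order of genes. AP-1 letters were found in 7.81% of all 32851 windows, TATAAA in 13.6% and the GC box in 35.7%, with both strands searched. AGGAAG, the letters bound by many Ets factors, occurred at 2 places in Mmp13, at 1 in Mmp3 and at 0 in Mmp10, and in 35.4% of all windows. No match overlapped a match to another motif.

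The windows of Mmp14 (chr14:54431348-54431647, plus strand), Timp2 (chr11:118355362-118355661, minus strand) and Timp3 (chr10:86300162-86300461, plus strand), the other genes that rose, are shown for contrast.
Mmp14: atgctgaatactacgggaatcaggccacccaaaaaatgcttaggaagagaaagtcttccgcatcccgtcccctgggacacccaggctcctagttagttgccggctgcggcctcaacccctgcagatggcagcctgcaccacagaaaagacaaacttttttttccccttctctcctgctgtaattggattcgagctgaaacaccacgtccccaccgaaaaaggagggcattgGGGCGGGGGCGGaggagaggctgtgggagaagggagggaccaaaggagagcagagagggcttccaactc
Timp2: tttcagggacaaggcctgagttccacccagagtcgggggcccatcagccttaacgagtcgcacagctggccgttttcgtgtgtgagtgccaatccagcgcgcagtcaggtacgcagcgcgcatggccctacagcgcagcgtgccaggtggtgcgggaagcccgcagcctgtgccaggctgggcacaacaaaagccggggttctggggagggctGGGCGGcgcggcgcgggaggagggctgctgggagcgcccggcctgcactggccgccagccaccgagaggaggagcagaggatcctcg
Timp3: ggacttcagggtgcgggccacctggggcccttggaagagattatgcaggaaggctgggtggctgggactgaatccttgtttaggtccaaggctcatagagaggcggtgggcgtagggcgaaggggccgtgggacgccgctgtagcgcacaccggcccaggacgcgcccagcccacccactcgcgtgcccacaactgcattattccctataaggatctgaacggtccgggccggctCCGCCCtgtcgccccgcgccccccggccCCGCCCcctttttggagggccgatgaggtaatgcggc

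These held GC boxes, 2 in Mmp14, 1 in Timp2 and 2 in Timp3, and neither AP-1 letters nor TATAAA. The Timp1 window also held 1 GC box, with 0 matches to AP-1 letters or TATAAA. The share of G and C was 43.7% in Mmp13, 40% in Mmp3 and 37.7% in Mmp10, against 56% in Mmp14, 68.7% in Timp2 and 67% in Timp3. CTTTGAA and CTTTGAT, 2 forms of the letters of the TCF/LEF factors that carry β-catenin to DNA, were in 0 of the 7 windows. They were in 8.65% of all windows. Other forms were not searched, such as CTTTGTA, which the Mmp10 window holds. Such matches are descriptions of these windows and not sites of binding.

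**Figure D2:**
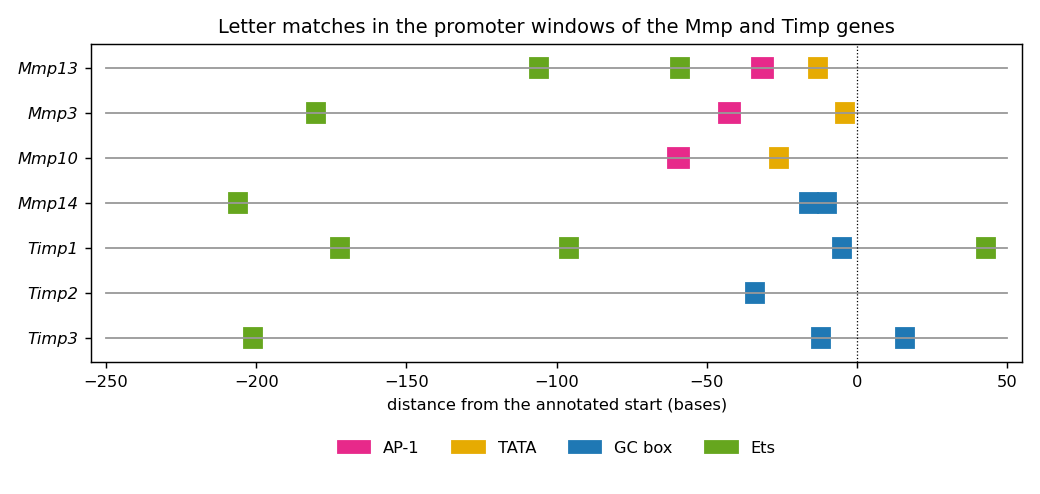
Matches to 4 motifs in the promoter windows of the 7 genes that had one, by distance from the annotated start in bases, with each box drawn to scale. AP-1 and TATA matches are in Mmp13, Mmp3 and Mmp10, and GC boxes are in Mmp14, Timp1, Timp2 and Timp3.

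The chromosome 9 cluster held 10 measured metalloprotease genes, and the rise was uneven along it. In chromosomal order they are Mmp13, Mmp12, Mmp1b, Mmp3, Mmp1a, Mmp10, Mmp8, Mmp27, Mmp20 and Mmp7. In null against flox cells 4 of the 10 were called higher, against 26.5% of all genes, and 3, Mmp13, Mmp3 and Mmp10, rose at least 2-fold. The other was Mmp27 (0.43 ± 0.12, limma adjusted p = 0.0134). In null Eα against flox cells 8 of the 10 were called higher, against 32.1% of all genes, and 4 rose at least 2-fold. The added gene was Mmp12, macrophage elastase, at 1.04 ± 0.24 (adjusted p = 0.00351), with values of 5.36, 5.44 and 6.40 on the null Eα arrays and 4.80, 4.66 and 4.60 on the flox arrays.

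Mmp1b and Mmp1a, relatives of the human interstitial collagenase gene, lie on either side of Mmp3. In null Eα against flox cells they were called higher, by 0.27 ± 0.09 and 0.29 ± 0.10 (limma adjusted p = 0.0275 and 0.0262). In null against flox cells they differed by 0.16 ± 0.09 and 0.11 ± 0.10 (adjusted p = 0.176 and 0.391). All 9 arrays had Mmp1a, Mmp1b and Mmp8 below the lower quartile of features. Mmp27 lay below it on 7 arrays and Mmp7 on 4. That quartile itself was 4.56 to 4.63 on the null Eα, 4.52 to 4.55 on the null and 4.37 to 4.40 on the flox arrays. The part of this shift in the small differences and calls of these dim genes was not tested. AP-1 letters (TGANTCA) were in windows of the 3 genes with the large rise and of 5 of the 7 other cluster genes. The match in Mmp20 was TGAATCA, and in the rest of these 5 it was TGAGTCA. Any part of AP-1 in the expression differences of the cluster genes was not tested. Of the 3 nearest measured genes on each side, Dcun1d5, next to Mmp13, was higher than in flox cells by 1.27 ± 0.10 with the fusion and by 1.55 ± 0.10 without it (adjusted p = 3.62e-06 and 6.72e-07). Beyond it, Dync2h1 and the dim Ddi1 were higher in null Eα than in flox cells, by 0.54 ± 0.18 and 0.37 ± 0.14 (adjusted p = 0.0213 and 0.0414). Neither was called in null against flox cells. The neighbours on the other side moved in both directions. Tmem123 was 0.89 ± 0.17 lower in null Eα than in flox cells (adjusted p = 0.00143), and null and flox cells differed by 0.09 ± 0.17 (adjusted p = 0.668). Birc2 was higher by 0.32 ± 0.11 in null Eα and by 0.99 ± 0.11 in null cells (adjusted p = 0.0260 and 2.57e-05). For Birc3, null Eα and flox cells differed by 0.08 ± 0.12 (adjusted p = 0.568), and null cells fell by 0.92 ± 0.12 (adjusted p = 1.04e-04).

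**Figure D3:**
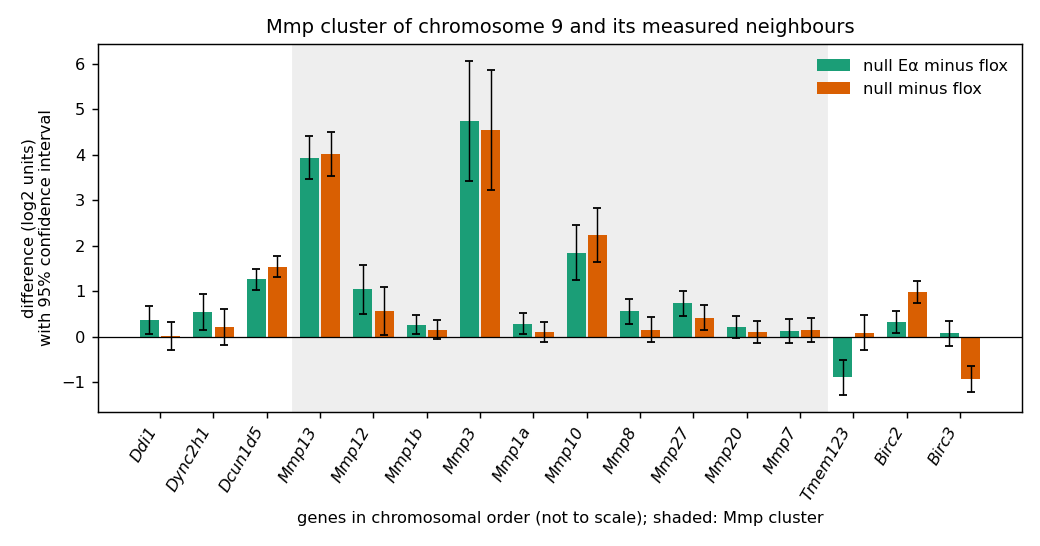
Difference from flox cells in log2 units for the 10 cluster genes (shaded) and 3 measured neighbours on each side, in chromosomal order and not to scale, with null Eα cells left of null cells. Bars are differences of group means with 95% confidence intervals, and Mmp13, Mmp3 and Mmp10 stand above the genes between them.

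Mmp14, a membrane-anchored collagenase and the activator of proMmp2, was the protease gene of the 9 that was called lower in null Eα than in null cells. Its values were 8.98, 8.58 and 8.72 on the null Eα arrays, 9.61, 9.76 and 9.54 on the null arrays, and 7.01, 7.07 and 6.99 on the flox arrays. The 3 groups did not overlap, and null Eα cells lay between the others. Groups did not overlap for 69.5% of all genes between null Eα and flox cells, 67.4% between null and flox cells and 43.1% between null Eα and null cells. Mmp14 rose by 1.73 ± 0.11 in null Eα cells (3.32-fold) and by 2.61 ± 0.11 in null cells (6.11-fold), each against flox cells (limma adjusted p = 4.67e-07 and 2.10e-08). It was lower by 0.88 ± 0.11 in null Eα than in null cells (adjusted p = 1.95e-04), at 0.543 of the null level.

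Mmp2, gelatinase A, which cuts denatured collagen and collagen IV, did not rise with its activator. It had values of 8.38, 8.07 and 9.31 on the null Eα arrays, 8.08, 8.82 and 8.05 on the null arrays, and 8.90, 9.02 and 9.14 on the flox arrays. Every null array lay below every flox array, while null Eα replicate 3 lay above them all. The differences from flox cells were -0.43 ± 0.29 in null Eα cells (limma adjusted p = 0.216, interval -1.08 to 0.22) and -0.70 ± 0.29 in null cells (adjusted p = 0.0644, interval -1.35 to -0.05). Null Eα and null cells differed by 0.27 ± 0.29 (adjusted p = 0.50, interval -0.38 to 0.92).

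Whether Mmp2 was called changed with single arrays and with the fit. Without null Eα replicate 3 it was called lower in null Eα cells (-0.79, adjusted p = 0.00912) and in null cells (-0.70, adjusted p = 0.0100), each against flox cells. With array weights it was called lower in null Eα cells too (-0.58, adjusted p = 0.0436). The null difference was also called without null replicate 2 (-0.96, adjusted p = 0.0223), without null Eα replicate 2 (adjusted p = 0.0436), with array weights and with only the compared groups in the fit. Mmp2 lies on chromosome 8, whose 635 brighter genes had a median difference of -0.59 in null Eα and -0.45 in null cells against flox cells. With each chromosome centred, Mmp2 differed by 0.13 in null Eα cells and -0.24 in null cells (adjusted p = 0.688 and 0.459).

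Mmp9, gelatinase B, had values of 5.52, 5.70 and 5.78 on the null Eα arrays, 5.21, 6.31 and 5.90 on the null arrays, and 6.15, 6.06 and 5.90 on the flox arrays. The null arrays spanned the values of both other groups, and all null Eα arrays lay below the flox arrays. Against flox cells it differed by -0.37 ± 0.22 in null Eα cells (limma adjusted p = 0.167, interval -0.86 to 0.13) and by -0.23 ± 0.22 in null cells (adjusted p = 0.406, interval -0.72 to 0.27). The null Eα difference was called without null replicate 1 (adjusted p = 0.0301) and with only the compared groups in the fit (adjusted p = 0.0159). Null Eα and null cells differed by -0.14 ± 0.22 (adjusted p = 0.654, interval -0.64 to 0.35), called lower without null replicate 1 (-0.44, adjusted p = 0.0468).

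The inhibitors split in the same way, with 2 of 3 higher than in flox cells. Timp1, a secreted inhibitor, had values of 9.96, 9.70 and 9.18 on the null Eα arrays, 9.64, 10.02 and 9.68 on the null arrays, and 9.85, 9.74 and 9.75 on the flox arrays. All 3 groups overlapped. The difference from flox cells was -0.17 ± 0.18 in null Eα cells (limma adjusted p = 0.419, interval -0.56 to 0.23), and the interval for null cells was -0.39 to 0.39. Null Eα and null cells differed by -0.17 ± 0.18 (adjusted p = 0.492, interval -0.56 to 0.23). The sign of these differences turned under some scalings and without some arrays.

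Timp2, an inhibitor that is also the adaptor in proMmp2 activation, had values of 9.16, 8.62 and 8.15 on the null Eα arrays, 9.12, 9.28 and 8.82 on the null arrays, and 5.99, 6.16 and 6.33 on the flox arrays. It rose by 2.49 ± 0.22 in null Eα cells (5.61-fold, limma adjusted p = 6.08e-06) and by 2.91 ± 0.22 in null cells (7.52-fold, adjusted p = 1.49e-06), each against flox cells. The null Eα and null ranges overlapped, and the lines differed by -0.42 ± 0.22 (adjusted p = 0.167, interval -0.92 to 0.07). That difference depended on the null Eα arrays, at -0.68 without replicate 1 (called, adjusted p = 0.0225) and -0.18 without replicate 3 (adjusted p = 0.457). With each chromosome centred it was -0.11 (adjusted p = 0.712). Timp2 lies on chromosome 11, whose 995 brighter genes had a median difference of -0.56 in null Eα and -0.17 in null cells against flox cells.

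Timp3, an inhibitor held in the matrix that also blocks several Adam proteases, had the largest difference between null Eα and null cells among the 9 genes. Its values were 8.03, 7.71 and 7.77 on the null Eα arrays, 9.52, 9.21 and 9.04 on the null arrays, and 7.20, 7.15 and 7.08 on the flox arrays. No groups overlapped. Timp3 rose by 0.69 ± 0.13 in null Eα cells (1.62-fold, limma adjusted p = 8.69e-04) and by 2.11 ± 0.13 in null cells (4.33-fold, adjusted p = 2.67e-07), each against flox cells. It was lower by 1.42 ± 0.13 in null Eα than in null cells (0.374 of the null level, adjusted p = 3.21e-05).

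**Figure D4:**
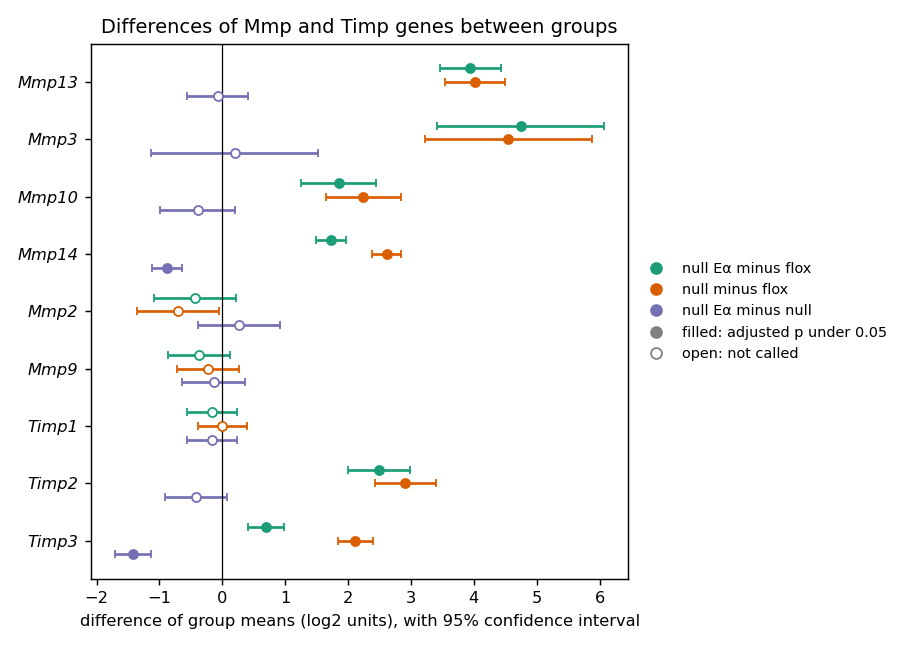
Differences between group means of the 9 genes in log2 units for 3 comparisons, with 95% confidence intervals and filled points for calls at an adjusted p under 0.05. Mmp14 and Timp3 have filled points in all 3 comparisons, and Mmp2, Mmp9 and Timp1 in none.

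Null replicate 2 was the highest of the null arrays for 8 of the 9 genes, and for 32.9% of all genes. The exception was Timp3, where replicate 1 was the highest. With null replicate 2 left out, the same 6 rises and, added to them, a lower Mmp2 were called in null against flox cells. The mean log2 level of 11 fibroblast markers was 8.60 on null replicate 2 and 7.80 on each of the other null arrays. Among the null arrays, Col3a1, Dcn, Lum, Pdgfra, Pdgfrb, Postn, Thy1 and Twist2 were highest on replicate 2. Col1a1 and Col1a2 were lowest on it, and Fap lay between.

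Fibroblast markers were higher in both lines without β-catenin, as were the 6 genes called higher among the 9. Their mean log2 level was 7.22 to 7.50 in null Eα cells, 7.80 to 8.60 in null cells and 5.25 to 5.42 in flox cells. In each line 10 of 11 were called higher against flox cells. Of all genes, 32.1% were called higher in null Eα and 26.5% in null cells. Of the 11, 2 lay below the lower quartile on every null Eα array, 1 to 2 on the null arrays and 4 on the flox arrays. Lum, a matrix proteoglycan of fibroblasts, was the marker not called, at 0.71 ± 0.66 in null Eα cells and 1.54 ± 0.66 in null cells against flox cells (limma adjusted p = 0.361 and 0.0710). Its null arrays were at 3.59, 6.67 and 3.57, against 2.90, 3.24 and 3.05 on the flox arrays, so replicate 2 carried the null difference. The mean level of 8 embryonic stem cell markers was 10.62 to 10.85 in null Eα cells, 8.11 to 8.45 in null cells and 10.81 to 10.87 in flox cells. Of the 8, 4 were called lower and 1 higher in null Eα, and 7 lower and 1 higher in null against flox cells. The shares of all genes called lower were 31.6% in null Eα and 28.7% in null against flox cells. In bulk RNA, more cells of a type and more RNA per cell cannot be told apart. The part of these markers in the protease differences was not tested.

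Of 10 markers of parietal endoderm, an embryonic lineage rich in basement membrane, 8 were called higher and 1 lower in null Eα and 6 higher and 1 lower in null against flox cells. Over all genes, 32.1% were called higher in null Eα and 26.5% in null against flox cells. The lower gene was Sparc in null Eα cells (-1.37) and Lama1 in null cells (-1.13). Gata6 was at 5.56 on every null Eα and null array and at 5.61 to 5.64 on the flox arrays. The mean level over 10 genes was 7.41 to 7.58 in null Eα cells, 7.49 to 7.65 in null cells and 6.74 to 6.86 in flox cells. The list shares Lama1, Lamb1, Col4a1 and Col4a2 with the matrix list below and Plat with the protease cascade, and the fibroblast list shares Col1a1, Col1a2, Col3a1 and Dcn with the matrix list, so these counts are not separate results. The means for 8 macrophage markers were 4.89 to 4.96, 4.96 to 5.01 and 4.78 to 4.87 in the same order of groups. For 6 endothelial markers they were 5.37 to 5.44, 5.05 to 5.15 and 5.33 to 5.38, and for 7 trophoblast markers 6.23 to 6.41, 5.74 to 5.94 and 6.37 to 6.41.

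The genes most like each of the 6 that rose were found by the root mean square distance of values centred on each gene's mean, over 9 arrays and 17058 candidate genes. For Mmp14 they were Col5a2, a chain of collagen V, at a distance of 0.05 log2 units, and App, the amyloid precursor protein, at 0.12. For Mmp13 they were Prrx1, a homeobox factor of mesenchyme (0.17), and Fgf7, a growth factor of mesenchymal cells (0.28). For Mmp10 they were Twist2, a mesenchymal transcription factor (0.19), and Itpripl2 (0.20). For Timp2 they were Emp1, a membrane protein (0.17), and Slc40a1, the iron exporter ferroportin (0.24). For Timp3 they were Jakmip2 (0.14) and Tgm2, a transglutaminase (0.17). For Mmp3 the nearest genes were farther, at 0.63 for Usp17ld, whose family of near-identical copies makes its value uncertain, and 0.64 for Dcn, the matrix proteoglycan decorin.

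Other genes of the protease system were read from lists of 95 genes, 89 of them measured. In null Eα against flox cells 48 were called higher and 17 lower (73.0% called), in null against flox cells 51 higher and 13 lower (71.9%), and in null Eα against null cells 9 higher and 38 lower (52.8%). The median differences were 0.39, 0.43 and -0.28. Over all genes 63.7%, 55.2% and 31.7% were called in these comparisons. With each chromosome centred, the counts were 62 higher and 11 lower in null Eα against flox cells, and 15 higher and 36 lower in null Eα against null cells. Without null replicate 2 they were 49 higher and 13 lower in null against flox cells.

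Among 16 other metalloprotease genes, 8 were higher and 1 lower in null Eα against flox cells, and 4 higher and 2 lower in null against flox cells. Over all genes 63.7% were called in null Eα (32.1% higher and 31.6% lower) and 55.2% in null against flox cells (26.5% higher and 28.7% lower). The median differences of the 16 were 0.28 and 0.16, and the medians over all genes were 0.07 and 0.06. Mmp25, a membrane-anchored protease of leukocytes, was higher by 2.22 ± 0.44 in null than in flox cells (limma adjusted p = 0.00149). Its null Eα arrays, at 7.56, 6.61 and 8.89, spread from below the flox arrays (7.09, 6.96 and 6.76) to near the null arrays (9.43, 9.09 and 8.93). Mmp16, a membrane-type protease, rose by 0.78 ± 0.20 in null Eα and by 2.05 ± 0.20 in null cells against flox cells (adjusted p = 0.00692 and 1.02e-05). Mmp11, stromelysin-3, fell by 0.47 ± 0.09 in null Eα and by 1.02 ± 0.09 in null cells (adjusted p = 0.00122 and 4.60e-06). Against null cells, null Eα cells had 4 of the 16 higher and 2 lower, where 13.6% of all genes were higher and 18.1% lower.

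Of the 5 other inhibitor genes, Tfpi2, a secreted protease inhibitor, was higher and Reck, a membrane-anchored inhibitor of metalloproteases, was lower in both lines. Tfpi2 rose by 1.01 ± 0.18 in null Eα and 1.44 ± 0.18 in null cells (limma adjusted p = 7.72e-04 and 6.16e-05). Reck fell by 0.93 ± 0.13 in null Eα and by 0.65 ± 0.13 in null cells (adjusted p = 1.21e-04 and 0.00133), each against flox cells. Timp4, the remaining Timp gene, differed by 0.19 ± 0.10 in null Eα and 0.06 ± 0.10 in null cells (adjusted p = 0.116 and 0.628).

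Of 10 genes of the plasminogen cascade and of proprotein convertases, which act upstream of metalloproteases, 6 were higher and 2 lower in null Eα against flox cells. In null against flox cells 7 were higher and 1 lower. Called over all genes were 32.1% higher and 31.6% lower in null Eα, and 26.5% and 28.7% in null against flox cells. Plau, the urokinase plasminogen activator, rose by 2.05 ± 0.19 in null Eα and by 2.03 ± 0.19 in null cells (limma adjusted p = 8.25e-06 and 7.03e-06). Plat, the tissue plasminogen activator, rose by 1.06 ± 0.21 in null Eα and by 1.77 ± 0.21 in null cells (adjusted p = 0.00168 and 4.54e-05). Pcsk6, a convertase, fell in null against flox cells, at -1.49 ± 0.11 (limma adjusted p = 1.56e-06). It was higher by 0.79 ± 0.11 in null Eα than in null cells (adjusted p = 6.24e-04). Furin, a convertase that cleaves the propeptide of Mmp14, was called in opposite directions. It differed from flox cells by -0.43 ± 0.14 in null Eα and 0.45 ± 0.14 in null cells (adjusted p = 0.0188 and 0.0170), and was lower by 0.88 ± 0.14 in null Eα than in null cells (adjusted p = 9.08e-04).

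Of 14 transcription factors of the AP-1, Ets and Runx families, 9 were higher and 4 lower in null Eα against flox cells. In null against flox cells 9 were higher and 2 lower, and the medians were 0.60 and 1.22. The shares of all genes called were 32.1% higher and 31.6% lower in null Eα, and 26.5% and 28.7% in null against flox cells. Fos, an AP-1 subunit, had values of 6.69, 6.49 and 7.54 on the null Eα arrays, 8.67, 8.64 and 7.71 on the null arrays, and 5.25, 5.09 and 5.24 on the flox arrays. It rose by 1.71 ± 0.29 in null Eα and by 3.15 ± 0.29 in null cells (limma adjusted p = 6.02e-04 and 6.70e-06). Fosb rose by 1.52 ± 0.31 and 3.46 ± 0.31, and Jun by 0.63 ± 0.15 and 2.33 ± 0.15, in null Eα and null cells in that order. In null Eα against null cells 0 of the 14 were higher and 9 were lower, where 13.6% of all genes were higher and 18.1% lower. Among the 9 were Fosb (-1.93 ± 0.31), Jun (-1.70 ± 0.15) and Fos (-1.44 ± 0.29). Mmp3, Mmp10 and Mmp13, whose windows hold AP-1 letters, were not called in that comparison. Any link between these factors and the 3 genes was not tested. The Ets factors Etv4 and Etv5 fell in both lines, by 0.96 ± 0.15 and 0.63 ± 0.08 in null Eα and by 1.29 ± 0.15 and 0.87 ± 0.08 in null cells.

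**Figure D5:**
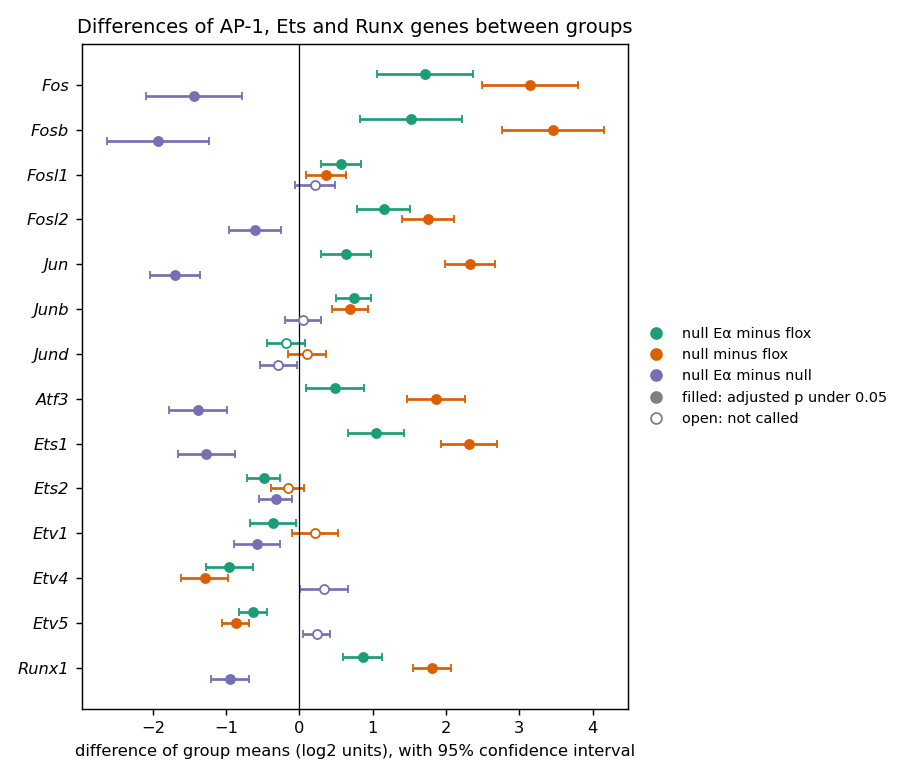
Differences between group means of 14 AP-1, Ets and Runx genes in log2 units for 3 comparisons, with 95% confidence intervals and filled points for calls. Fos, Fosb, Jun, Atf3, Ets1 and Runx1 lie to the right of 0 in both lines against flox cells and to the left of 0 in null Eα against null cells.

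Of 17 genes for matrix proteins that these proteases cut, 13 were higher and 2 lower in null Eα against flox cells. In null against flox cells 12 were higher and 3 lower. Among all genes, 32.1% were called higher and 31.6% lower in null Eα, and 26.5% and 28.7% in null against flox cells. Tnc, tenascin C, rose by 5.74 ± 0.19 in null Eα and by 6.45 ± 0.19 in null cells, and Col1a2, a chain of collagen I, by 3.65 ± 0.12 and 4.82 ± 0.12. Lama1, a laminin chain of basement membranes, fell by 1.13 ± 0.13 in null cells and was higher by 1.46 ± 0.13 in null Eα than in null cells (limma adjusted p = 2.98e-05 and 3.07e-05).

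Among 11 genes for docking and clearance of metalloproteases, 4 were higher and 3 lower in null Eα against flox cells. In null against flox cells 8 were higher and 2 lower, and 9 were lower in null Eα than in null cells. Of all genes, 32.1% were higher and 31.6% lower in null Eα, and 26.5% and 28.7% in null against flox cells. Null Eα cells had 18.1% of all genes lower than null cells. Thbs1 and Thbs2, thrombospondins that bind gelatinases, rose by 5.28 ± 0.10 and 2.17 ± 0.37 in null Eα and by 5.91 ± 0.10 and 3.23 ± 0.37 in null cells. Lrp2, an endocytic receptor, was higher by 2.83 ± 0.47 in null than in flox cells (limma adjusted p = 4.50e-04) and was lower by 2.56 ± 0.47 in null Eα than in null cells (adjusted p = 0.00233). Bsg, basigin, known as an inducer of metalloproteases, fell by 1.33 ± 0.07 in null Eα and by 1.23 ± 0.07 in null cells (adjusted p = 1.93e-07 and 1.89e-07).

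Among 16 Adam and Adamts protease genes, 7 were higher and 4 lower in null Eα against flox cells. In null against flox cells 10 were higher and 2 lower, and 0 were higher and 9 lower in null Eα than in null cells. The shares of all genes were 32.1% higher and 31.6% lower in null Eα, and 26.5% and 28.7% in null against flox cells. In null Eα against null cells they were 13.6% higher and 18.1% lower. Adamts1, which cuts proteoglycans, rose by 0.99 ± 0.07 in null Eα and by 2.12 ± 0.07 in null cells (limma adjusted p = 1.73e-06 and 7.89e-09). Adam19, a membrane-anchored protease, fell by 1.78 ± 0.19 in null Eα and by 1.73 ± 0.19 in null cells (adjusted p = 2.08e-05 and 2.07e-05).

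Facts of the whole series bear on these values. The deleted gene Ctnnb1 was lower by 0.93 ± 0.07 in null Eα and by 0.65 ± 0.07 in null cells (limma adjusted p = 2.66e-06 and 2.82e-05), and since its probes may lie beyond the deleted exons, this does not check the genotype. Array pairs of 1 group correlated at 0.986 to 0.997 over all features, and no 2 arrays held identical values. The interquartile range was 3.21 to 3.37 in null Eα cells, 3.41 to 3.46 in null cells and 3.75 to 3.84 in flox cells, and the distributions thus differed between groups. Quantile normalization left the count of called members at 6, 6 and 2 in the 3 comparisons.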

How the data were processed

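Expression was measured on Affymetrix whole-transcript arrays with biotin-labelled sense target from total RNA, 1 array per sample, per the labels. The authors deposited log2 values made with RMA, per the submitters' processing notes, and the annotation build is not given in the sources used here. The labels do not say whether all 9 arrays were normalized together. The deposited log2 values of 35556 features ran from 2.02 to 13.92 and were used as they stand. Scanner files, detection calls and scan dates were not used here, and precision is limited by the number of arrays.

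Of the features, 21789 had 1 symbol, 1621 several and 12146 were not listed in the platform annotation. Genes with several features kept the one with the highest mean, which gave 19938 genes. The 9 arrays entered 1 model without covariates (lmFit and eBayes of limma 3.58.1, run in R 4.3.3), which was tested on simulated data, and p-values were adjusted over all genes. Chromosomes and gene order came from RefSeq GRCm38.p6. Figures used matplotlib 3.10.9.

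The members and lists were chosen with earlier results of these data known. Genes named were all members, the 3 largest called changes per list and comparison, and the 2 nearest genes by distance of each member called in a comparison whose group means span at least 1 log2 unit. Not all genes of the second kind are given. Atf3, Ets1, Runx1, Etv4, Etv5, Bsg, Timp4, Lum, Mmp1a, Mmp1b and the neighbours of the cluster were named after their values were seen. Listed genes without a matched symbol (among them Mmp15, Serpine2, Runx2, Adamts2, Spp1, Fbn1, Prl3d1 and Prl2c2) were not analysed here. The replicate numbers are shared by the groups. Deviations from the group means correlated at -0.03 to 0.26 between same-numbered arrays and at -0.20 to 0.14 between the others. The main fit used no block, although a small shared effect of replicate number is possible, and a fit with a block is given below.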

Additional observations from a re-analysis of the deposited data

How the results depend on the processing

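Over 19 alternatives, all 12 rises of Mmp3, Mmp10, Mmp13, Mmp14, Timp2 and Timp3 against flox cells, and the lower Mmp14 and Timp3 in null Eα against null cells, kept their direction and their call. The number of members called ran from 6 to 7, 6 to 7 and 2 to 3 in null Eα against flox, null against flox and null Eα against null cells, and the number of other listed genes from 53 to 73, 57 to 71 and 35 to 51. The replicate number as a block (a replicate block) left the members called at 6, 6 and 2 and the other listed genes at 65, 66 and 48, and changed no member's call.

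Differences that were not called turned sign in places, and the cause was not tested. Leaving out 1 array at a time, the differences between null Eα and null cells ran from -0.65 to 5.18e-04 for Mmp10, -0.32 to 0.17 for Mmp13, -0.087 to 0.53 for Mmp2, -0.27 to 1.09 for Mmp3, -0.44 to 0.11 for Mmp9 and -0.34 to 0.049 for Timp1. Those of Mmp9 and Timp1 between null and flox cells ran from -0.48 to 0.070 and from -0.12 to 0.072, and that of Timp1 between null Eα and flox cells from -0.34 to 0.050. Quantile normalization put Mmp13 at 0.030 in null Eα against null cells and Timp1 at 0.12 in null Eα against flox cells. With each array centred on its median, Timp1 was at -0.035 in null against flox cells. With each chromosome centred, Mmp2 was at 0.13 and Timp1 at 0.038 in null Eα against flox cells, and Timp1 at 0.018 in null Eα against null cells. The number of arrays and the unmeasured background limit what dim genes can show.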
